A study of Mus musculus with 6 samples.

Results

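The interleukin 2 (IL2) pathway was followed through 10 genes, from the cytokine to the inhibitors that its signal induces, in C1498 leukemia cells recovered from the bone marrow of mice with and without cytarabine. The 10 genes were selected by symbol from the 23284 genes in each file: Il2, its receptor chains Il2ra, Il2rb and Il2rg, the kinase gene Jak3, the transcription factor genes Stat5a and Stat5b, and the inhibitor genes Socs1, Socs3 and Cish. The set was chosen with earlier results of the same comparison known, so the differences of its members between the groups are given as a description, without a test. In the cytarabine group, 3 members were higher in every library than in any control library, Il2ra, Il2rb and Socs1, while 7 overlapped between the groups, among them Il2 itself, Il2rg, Jak3 and both Stat5 genes. The share of all 11703 genes tested with every cytarabine library above every control library was 10.9%, and 12.9% had every cytarabine library below. No member was below in every cytarabine library.

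C1498 is a mouse leukemia line labelled as acute myeloid leukemia (AML). The study's methods state that the injected cells were a single clone transduced with a retrovirus for green fluorescent protein, and that young adult female C57BL/6J mice served as syngeneic hosts unless stated otherwise, so each host kept its own immune and marrow cells. Cells positive for GFP and CD49b were sorted as AML cells from femur, tibia and pelvis on day 21 after injection, and each of the 6 mice gave 1 library. The cytarabine group had 3 mice treated with cytarabine (cytosine arabinoside), a nucleoside analog that blocks DNA synthesis, and the labels give neither its dose nor its days for the sequenced mice. The labels of the 3 control mice use both PBS and untreated for the same animals. The libraries are called cytarabine 1, 2 and 3 and control 1, 2 and 3, and equal numbers are different mice. All p-values measure the spread between these mice.

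The interleukin 2 receptor binds its cytokine with high affinity when the alpha chain (Il2ra, CD25), the beta chain (Il2rb, CD122) and the common gamma chain (Il2rg, CD132) come together. The beta chain carries JAK1 and the gamma chain carries JAK3, and these kinases phosphorylate STAT5A and STAT5B, which move to the nucleus and bind DNA at motifs with the letters TTCNNNGAA. Among the genes that STAT5 induces are Il2ra itself and the inhibitors SOCS1, SOCS3 and CIS, which act back on the receptor or its kinases. The pathway is best known in activated T cells, regulatory T cells and NK cells, and the beta and gamma chains also form the receptor of interleukin 15.

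The promoters of 3 members are shown, Cish and Socs3 as the members with a STAT motif and Il2ra as the member with an NF-kB motif. The sequences come from RefSeq on build GRCm38.p6, where 9 of the 10 members matched. The windows ran from 250 bases before to 50 bases after each listed gene start. The 9 members had 11 windows, since Stat5a and Stat5b each had more than 1 start. The motifs searched, on both strands, were TTCNNNGAA for STAT, TGGAAA for NFAT, TGANTCA for AP-1 and, for NF-kB, GGGA and CCC separated by 3 bases of any kind. Capitals mark every match, and positions count from 1 at the first base of the RefSeq gene start, with bases before it negative. The Il2ra stretch is chr2:11642542-11642791 on the plus strand, from position -250 to -1, and its capitals are an NF-kB motif that starts at position -201. The Cish stretch is chr9:107296559-107296688 on the plus strand, from position -100 to 30. Its capitals are STAT motifs that start at positions 1 and 12, each overlapped by an NFAT motif that starts at positions 5 and 16. The Socs3 stretch is chr11:117969367-117969616 on the minus strand, from position -250 to -1, with a STAT motif that starts at position -154.
Il2ra: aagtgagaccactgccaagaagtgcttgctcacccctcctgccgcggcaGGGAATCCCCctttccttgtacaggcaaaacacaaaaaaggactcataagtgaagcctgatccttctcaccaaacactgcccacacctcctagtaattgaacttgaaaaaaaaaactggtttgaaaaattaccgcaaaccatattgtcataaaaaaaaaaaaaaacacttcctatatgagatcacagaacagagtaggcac
Cish: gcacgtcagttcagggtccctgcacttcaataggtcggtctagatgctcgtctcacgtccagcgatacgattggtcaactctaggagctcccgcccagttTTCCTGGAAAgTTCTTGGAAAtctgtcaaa
Socs3: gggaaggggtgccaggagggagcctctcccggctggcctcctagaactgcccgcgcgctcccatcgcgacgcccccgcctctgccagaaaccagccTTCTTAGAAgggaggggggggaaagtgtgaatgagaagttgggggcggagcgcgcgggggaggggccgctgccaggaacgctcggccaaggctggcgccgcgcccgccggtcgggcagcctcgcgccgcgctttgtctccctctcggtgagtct
Of all 32851 promoter windows of this length, 8.3% held the STAT motif, 21.4% the NFAT motif, 7.81% the AP-1 motif and 5.55% the NF-kB motif. Il2, Il2rg and Jak3, not shown, each had an NFAT motif in the window. For Stat5b, also not shown, the window at chr11:100822521-100822820 held an NFAT motif, and that at chr11:100850532-100850831 held none. No member's window held the AP-1 motif. The 2 members with a STAT motif in this window were among the 7 whose groups overlapped, and Il2rb had no window to search.

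The libraries held an estimated 11500000 to 18700000 reads, and among them RNA of other cells. The colon epithelium gene Zg16 ran from 9.49 FPKM (a fragment count divided by transcript length and library size) in control 3 to 2207 FPKM in cytarabine 3, and 5 colon markers placed cytarabine 2, cytarabine 3 and control 1 apart from the others, across the groups. The 5 heart muscle markers summed to 4.74, 19.2 and 643.6 FPKM in cytarabine 1, 2 and 3, and to 2359, 505.2 and 47.5 FPKM in control 1, 2 and 3. A division by colon markers is thus not a division by heart RNA. The 4 smooth muscle markers summed to 15.9 to 661.3 FPKM. The 8 neutrophil markers summed to 189 to 1433 FPKM with cytarabine and to 1438 to 2043 FPKM in controls, with 6 of 8 below in every cytarabine library. Myeloid markers were low for a line labelled AML, with sums of 26.4 to 54.1 FPKM outside cytarabine 1, at 259.5 FPKM, and Flt3 under 1 FPKM in all libraries. Cd3g was at 449.4 to 651.9 FPKM and Cd3e at 129.6 to 199.3 FPKM, whereas Cd247, Cd4, Cd5, Cd8a and Cd8b1 stayed below 1 FPKM throughout. Of the 10 T cell markers, 2 were above in every cytarabine library, Cd28 at 30.9 to 37.9 against 12.4 to 14.7 FPKM and Cd3d at 7.66 to 9.99 against 3.61 to 4.47 FPKM. No gene passed an adjusted p of 0.05 (limma, smallest adjusted p = 0.0551), and 2038 of 11703 had an unadjusted p under 0.05. The median log2 difference of all genes tested was -0.0015.

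**Figure D1:**
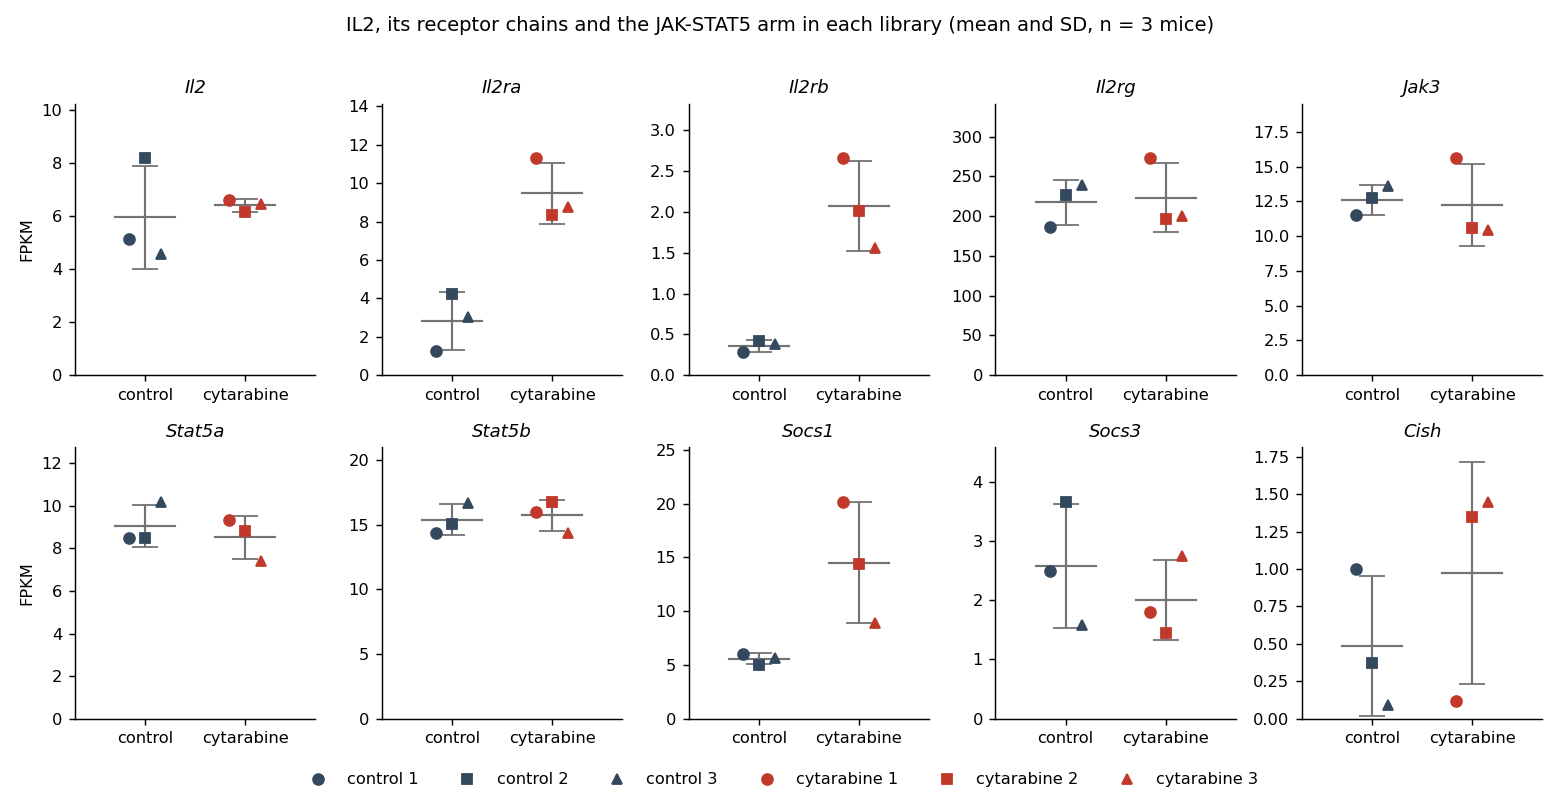
FPKM of the 10 members in each library, 1 panel per gene with its own linear axis from 0; each point is 1 mouse, and the bars give the mean and SD of 3 mice. Il2ra, Il2rb and Socs1 separate the groups, and the other 7 genes overlap.

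The level of the cytokine gene overlapped between the groups. Il2, at chr3:37120523-37125959 on the minus strand (GRCm38), encodes the ligand of the receptor. It measured 6.59, 6.13 and 6.46 FPKM in cytarabine 1, 2 and 3, against 5.12, 8.17 and 4.57 FPKM in control 1, 2 and 3. The cytarabine libraries lay within the range of the controls, with control 2 highest and control 3 lowest of all. The mean was 6.40 ± 0.24 FPKM (SD, n = 3 mice) with cytarabine and 5.95 ± 1.94 FPKM (SD, n = 3) in controls, a difference of 0.12 ± 0.22 (SE) on the log2(FPKM + 1) scale. Estimated reads ranged from 50 to 108 a library, and 10.6% of the 75-base windows of its transcript also occur in transcripts of Ntan1.

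The alpha chain had the largest difference among the members on the log2(FPKM + 1) scale, though not with a pseudocount of 0.1, where it had 1.85 and Il2rb 2.22, nor within the libraries with low colon markers, where Socs1 had 1.74. Il2ra, at chr2:11642807-11693193 on the plus strand, encodes the chain that raises the receptor's affinity for IL2 and is a marker of activated and regulatory T cells. It measured 11.3, 8.34 and 8.78 FPKM in cytarabine 1, 2 and 3, against 1.24, 4.21 and 3.03 FPKM in control 1, 2 and 3. The lowest cytarabine library was above the highest control library, and control 1 was the lowest of all. The mean was 9.47 ± 1.60 FPKM (SD, n = 3) against 2.83 ± 1.49 FPKM (SD, n = 3), a ratio of 3.35 and a log2 difference of 1.53 ± 0.38 (SE). Within the 3 libraries with low colon markers, 1 cytarabine against 2 control, the difference was 1.42. Within the 3 with high colon markers, 2 cytarabine against control 1 alone, it was 2.09. The T cell markers Cd28 and Cd3d separated the groups in the same direction. Cd3g and Cd3e, the most abundant of the 10 T cell markers, overlapped between the groups. The sum of the 10 was 626.2 to 826.3 FPKM with cytarabine and 721.5 to 872.7 FPKM in controls. The part of T cells in the Il2ra values was not tested.

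The regulatory T cell gene Foxp3 was under 1 FPKM in all libraries, from 0.298 to 0.521 FPKM, and Lrrc32 was also under 1 FPKM. The 5 regulatory T cell markers summed to 28.6 to 37.4 FPKM with cytarabine and to 24.6 to 28.7 FPKM in controls, most of it Ikzf2, and 1 of the 5, Ctla4, was above in every cytarabine library. Since the RNA is from bulk samples, fewer cells of a type and less RNA per cell cannot be told apart here, for any of the genes.

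The beta chain had the largest ratio of means. Il2rb, at chr15:78479256-78495271 on the minus strand, encodes the signalling chain shared by the receptors of IL2 and IL15. It measured 2.66, 2.01 and 1.56 FPKM in cytarabine 1, 2 and 3, against 0.281, 0.42 and 0.382 FPKM in control 1, 2 and 3. The lowest cytarabine library, at 1.56 FPKM, was above the highest control library, at 0.42 FPKM. The mean was 2.08 ± 0.55 FPKM (SD, n = 3) with cytarabine and 0.361 ± 0.072 FPKM (SD, n = 3) in controls, a ratio of 5.75. Its log2 difference was 1.16 ± 0.16 (SE) with a pseudocount of 1, which understates a change at such low levels, and 2.22 with a pseudocount of 0.1.

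The values of Il2rb rest on few reads in the controls, estimated at 16, 21 and 18, against 138, 150 and 82 in the cytarabine libraries. Its mean over the 6 libraries, 1.22 FPKM, passed the filter of 1 FPKM only through the cytarabine group. Under quantile normalization its groups overlapped and the difference was 0.79. None of the 75-base windows of its transcript occurs in another gene. The 9 markers of NK cells, in which Il2rb is normally expressed, summed to 183.3 to 224.8 FPKM with cytarabine and to 138.4 to 159.5 FPKM in controls. Of the 9, 6 were above in every cytarabine library, as were 10.9% of all genes tested. Eomes and Klrk1 were among the 6 by small margins, with lowest cytarabine values of 0.397 and 50.8 FPKM against highest control values of 0.396 and 50.2 FPKM. Of the 9, 1 was below, Itga2, which encodes the CD49b used in the sort. The defining NK genes Ncr1, Eomes and Tbx21 were under 1 FPKM in all libraries, and the part of such cells in the Il2rb values was not tested.

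The gamma chain and its kinase did not follow the other receptor chains. Il2rg, at chrX:101264378-101268255 on the minus strand, encodes the chain common to the receptors of IL2, IL4, IL7, IL9, IL15 and IL21. Its level was 272.8, 196.6 and 199.8 FPKM in cytarabine 1, 2 and 3, against 185.7, 226.9 and 239.2 FPKM in control 1, 2 and 3. Its mean exceeded that of 98.3% of the 23284 genes. The groups overlapped, with cytarabine 1 highest and control 1 lowest, and the log2 difference was 0.03 ± 0.19 (SE). Of the 75-base windows of its transcript, 41.1% are shared with Gm20489, which overlaps its exons on the same strand.

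Jak3, at chr8:71676296-71690575 on the plus strand, encodes the kinase bound to the gamma chain. It measured 15.6, 10.6 and 10.4 FPKM in cytarabine 1, 2 and 3, against 11.5, 12.7 and 13.6 FPKM in control 1, 2 and 3. Cytarabine 1 was the highest library and the other two cytarabine libraries were the lowest. The log2 difference was -0.06 ± 0.19 (SE), and its sign turned when cytarabine 2 or 3 was left out. Cytarabine 1, control 3 and control 2 were the 3 highest libraries for both Jak3 and Il2rg, with a Pearson r of 0.930 over the 6 libraries on the log2(FPKM + 1) scale. Jak3 shares 8.37% of its windows with Insl3, which overlaps it on the same strand.

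With Il2rg level and Il2rb and Il2ra apart, the proportions between the chains differed by group. Il2rg was 97.9 to 128.3 times Il2rb in the cytarabine libraries and 540.2 to 660.7 times in the controls. Il2rg was 22.8 to 24.2 times Il2ra with cytarabine and 53.9 to 149.4 times in controls. The narrow range of the latter ratio among the cytarabine libraries held although Il2rg itself ranged from 196.6 to 272.8 FPKM there. The ratio of Il2ra to Il2rb overlapped between the groups, at 4.15 to 5.64 with cytarabine and 4.42 to 10.02 in controls. In both groups the beta chain was thus the receptor chain with the lowest level per length.

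Both Stat5 genes stayed within a narrow range. Stat5a and Stat5b lie next to each other on chromosome 11, 8626 bases apart, and encode the pair of closely related factors that carry the signal to DNA. Stat5a, at chr11:100859351-100885169 on the plus strand, measured 9.35, 8.8 and 7.4 FPKM in cytarabine 1, 2 and 3, against 8.51, 8.49 and 10.2 FPKM in control 1, 2 and 3. The highest and the lowest library were control 3 and cytarabine 3, and the log2 difference was -0.08 ± 0.12 (SE).

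Stat5b, at chr11:100780731-100850724 on the minus strand, measured 16, 16.8 and 14.4 FPKM in cytarabine 1, 2 and 3, against 14.4, 15.1 and 16.7 FPKM in control 1, 2 and 3. It varied least of the members, with the highest library at 1.17 times the lowest, and the log2 difference was 0.03 ± 0.09 (SE). The groups overlapped almost fully. Stat5b was 1.63 to 1.94 times Stat5a in all 6 libraries. The pair shares windows of 75 bases, 10.1% of those of Stat5a and 7.53% of those of Stat5b, so the division of reads between them is uncertain to that extent.

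**Figure D2:**
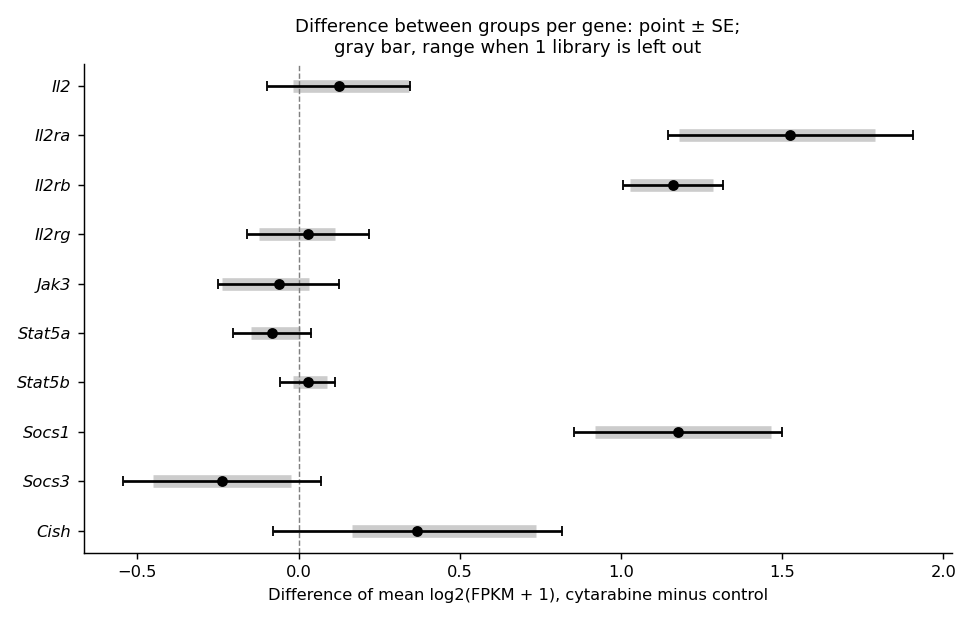
Difference of mean log2(FPKM + 1) between the groups for each member, cytarabine minus control: points are the differences over 3 against 3 mice, thin bars their SE, and gray bars the range when each library in turn is left out. Il2ra, Socs1 and Il2rb lie at 1.53, 1.18 and 1.16, and the gray bars of Il2, Il2rg, Jak3, Stat5a and Stat5b cross 0.

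Of the 3 inhibitor genes, Socs1 separated the groups and the other two overlapped. Socs1, at chr16:10782240-10785536 on the minus strand, encodes a protein that binds and blocks JAK kinases and is induced by cytokines, interferons among them. It measured 20.2, 14.4 and 8.92 FPKM in cytarabine 1, 2 and 3, against 6.02, 5.01 and 5.64 FPKM in control 1, 2 and 3. The cytarabine libraries differed among themselves by more than the controls did, and the lowest of them was still above every control. The mean was 14.5 ± 5.62 FPKM (SD, n = 3) against 5.56 ± 0.51 FPKM (SD, n = 3), a ratio of 2.61 and a log2 difference of 1.18 ± 0.32 (SE). The difference was 1.74 within the 3 libraries with low colon markers, 1 cytarabine against 2 control. It was 0.82 within those with high colon markers, 2 cytarabine against 1 control.

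Socs3, at chr11:117966079-117970047 on the minus strand, encodes an inhibitor best known for its action on receptors of the interleukin 6 family. Its level was 1.81, 1.44 and 2.75 FPKM in cytarabine 1, 2 and 3, against 2.5, 3.67 and 1.58 FPKM in control 1, 2 and 3. The groups overlapped, with control 2 highest and cytarabine 2 lowest, and the log2 difference was -0.24 ± 0.31 (SE). Its STAT motif stands in the sequence shown above.

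Cish, at chr9:107296026-107302784 on the plus strand, encodes CIS, which binds activated cytokine receptors and is a known STAT5 target, with a pair of STAT motifs in the sequence shown. It measured 0.117, 1.35 and 1.45 FPKM in cytarabine 1, 2 and 3, against 1, 0.37 and 0.0885 FPKM in control 1, 2 and 3. The 3 highest libraries, cytarabine 3, cytarabine 2 and control 1, were the 3 with the highest colon markers. With a mean of 0.729 FPKM it was the 1 member of 10 below the filter of 1 FPKM, and it was not tested. The estimated reads were 4 in cytarabine 1 and 3 in control 3, against a highest library of 67.

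The difference of Cish between the groups was 0.37 ± 0.45 (SE) over all libraries and -0.13 within those with low colon markers, 1 cytarabine against 2 control. Its Pearson r with the mean of the colon markers was 0.905 over the 6 libraries, where those of Il2ra and Il2rb were 0.223 and 0.430. The part of colon RNA in the Cish values was not tested. Of its windows, 13.2% are shared with Gm17040 and Gm17041, which overlap its exons on the other strand, and whether the counting used strand is not given in the sources used here.

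**Figure D3:**
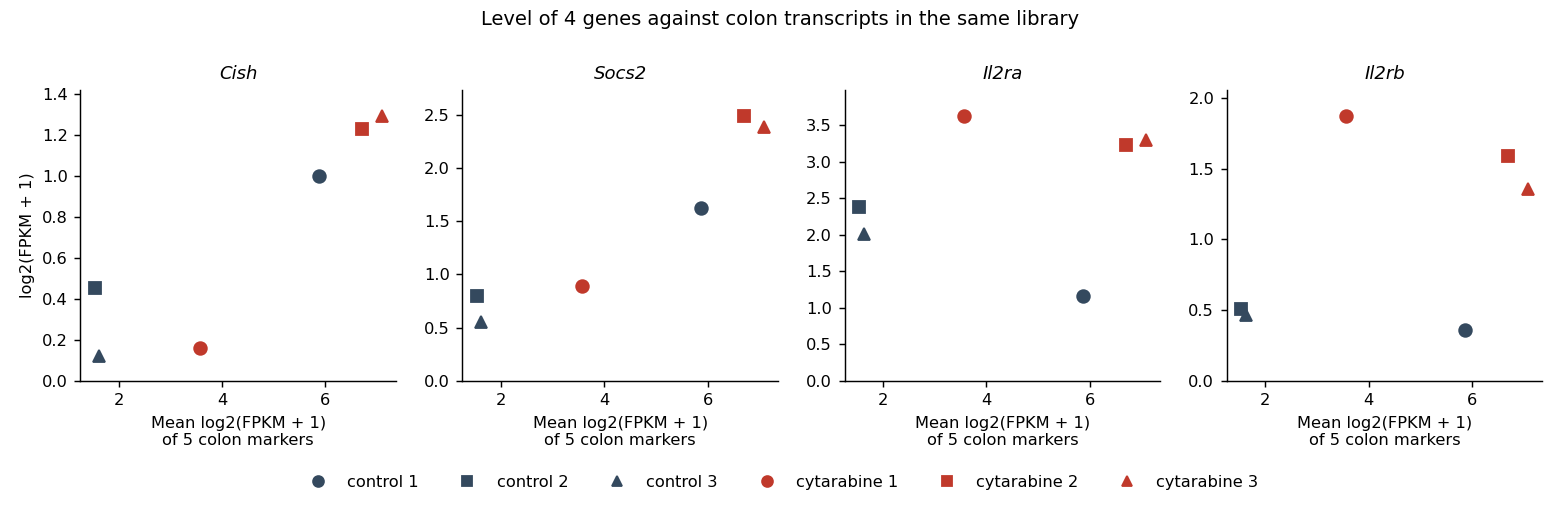
Level of Cish, Socs2, Il2ra and Il2rb as log2(FPKM + 1) against the mean log2(FPKM + 1) of 5 colon markers, 1 point per library. Cish and Socs2 are highest in the 3 libraries on the right, cytarabine 2, cytarabine 3 and control 1, whereas Il2ra and Il2rb are lowest in control 1, on the same side.

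By level per length, the members kept much of their order in both groups. Il2rg came first and Stat5b followed, with no overlap between them. In the cytarabine group, Stat5b, Socs1, Jak3, Il2ra and Stat5a came next in this order at 15.8 to 8.52 FPKM, and each overlapped its neighbor. Il2, at 6.40 FPKM, overlapped neither Stat5a above nor Il2rb below, and Il2rb, Socs3 and Cish came last with overlapping values. In the controls, Stat5b, Jak3 and Stat5a followed Il2rg at 15.4, 12.6 and 9.07 FPKM, without overlap between neighbors. Il2 and Socs1 came next and overlapped, then Il2ra and Socs3, which also overlapped, and last Cish and Il2rb, at 0.487 and 0.361 FPKM with overlapping values. Socs1 and Il2ra ranked higher with cytarabine than in the controls, and Il2rb moved from the last place to the eighth.

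Genes that separate the same groups correlate over the 6 libraries for that reason alone, so the values that follow add nothing to the separation. The Pearson r on the log2(FPKM + 1) scale was 0.925 for Il2ra and Il2rb, 0.956 for Il2rb and Socs1, and 0.795 for Il2ra and Socs1, over the 6 libraries. Among the controls, Socs1 was highest in control 1 and lowest in control 2, the reverse of Il2ra and Il2rb. Il2 had an r of 0.497 with Il2ra. The 5 genes most like Il2ra, of 11702 compared over the 6 libraries, were Tet2, Nfkb2, Agbl3, H2-Q4 and Tnfrsf9, with r from 0.996 to 0.989, and 247 genes reached 0.9. Nfkb2, which encodes an NF-kB subunit, measured 29.7, 27.7 and 28.2 FPKM with cytarabine, against 13.6, 21.7 and 19.2 FPKM in controls, lowest in control 1 as Il2ra was. Tet2 covered a far narrower range, from 2.52 to 3.13 FPKM. Nfkb1 and Rela, which encode other NF-kB subunits, overlapped between the groups.

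The genes around the members were described by 6 lists of other genes of the pathway, with the test of each gene by limma over all 11703 genes. At an unadjusted p under 0.05, 7.60% of all genes tested were higher and 9.81% were lower with cytarabine, and each list is to be read against these shares. No gene of any list passed the adjusted threshold.

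The other receptors of the gamma chain family moved in both directions. Of 12 listed cytokines and receptors, 6 were tested, of which 1 was higher, 2 were lower and 3 did not pass, with a median log2 difference of -0.13. Il7r, which pairs with the gamma chain to bind interleukin 7, measured 9.27, 10.9 and 10.4 FPKM with cytarabine, against 5.43, 6.85 and 5.93 FPKM in controls. Its log2 difference was 0.66 ± 0.11 (SE; unadjusted p = 0.00104, adjusted p = 0.136 by limma). Il9r, the partner for interleukin 9, was at 25.7, 18.2 and 19.3 FPKM against 32.9, 36 and 38.4 FPKM, a difference of -0.75 ± 0.14 (SE; adjusted p = 0.139 by limma).

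Il21r, the partner for interleukin 21, measured 67.7, 48.7 and 49.6 FPKM with cytarabine, against 80.3, 85.3 and 90.1 FPKM in controls. Its difference was -0.63 ± 0.14 (SE; adjusted p = 0.155 by limma), so that 2 partner chains were lower, in every cytarabine library, while the gamma chain itself overlapped. Il15ra and Il4ra overlapped between the groups, with differences of -0.02 and -0.18 that did not pass. Of the cytokines, Il15 alone was tested, at -0.09, and Il9 was listed at 0 in all libraries. Il7 and Tslp, below the filter of 1 FPKM, were above in every cytarabine library. Il7 was at 0.57, 1.32 and 1.22 FPKM against 0.463, 0.355 and 0.229 FPKM, and Tslp at 0.328, 0.737 and 0.483 FPKM against 0.151, 0 and 0.0933 FPKM. With no filter on low FPKM, 3 genes of this list were higher.

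**Figure D4:**
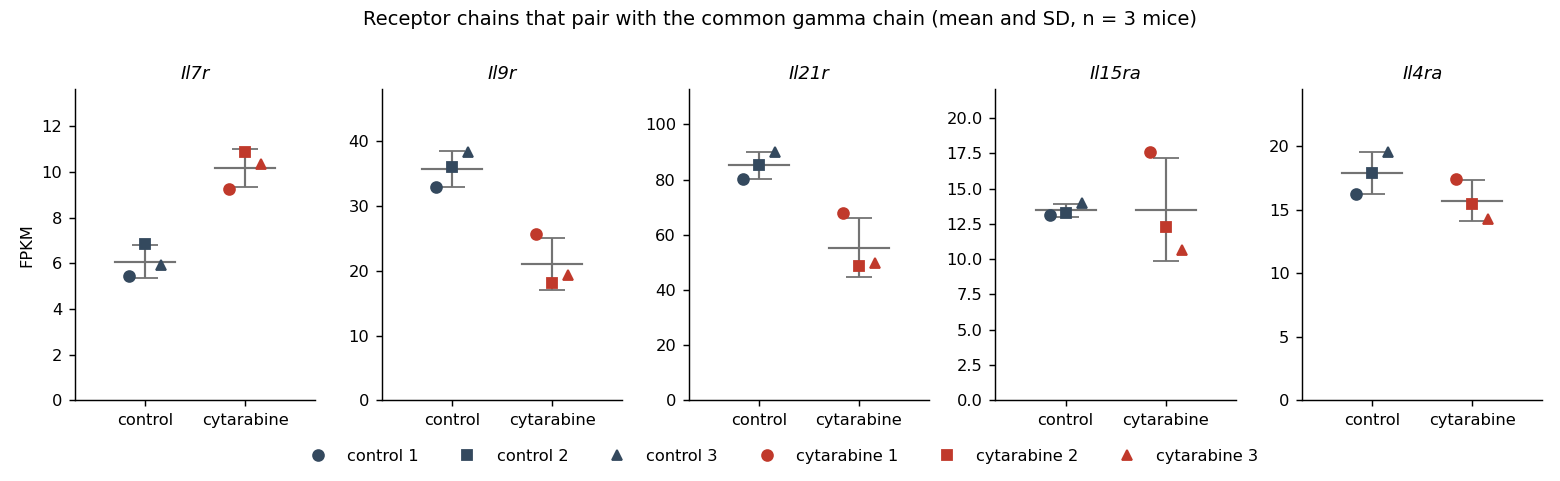
FPKM of 5 receptor chains that pair with the common gamma chain, 1 panel per gene with its own linear axis from 0; points are mice, and bars give the mean and SD of 3 mice. Il7r is higher and Il9r and Il21r are lower in every cytarabine library, and Il15ra and Il4ra overlap.

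The other JAK and STAT genes leaned upward by small amounts. Of 8 listed and tested, 3 were higher and none was lower at an unadjusted p under 0.05, with a median of 0.20. Jak1, which encodes the kinase bound to the beta chain, measured 95.9, 95.5 and 96.8 FPKM with cytarabine, against 78.8, 80.2 and 81.6 FPKM in controls. The difference of Jak1 was 0.26 ± 0.05 (SE; adjusted p = 0.137 by limma). Jak2 had 0.30 and Stat3 0.20, with adjusted p of 0.182 and 0.277 by limma. Among the other SOCS genes, phosphatases and PIAS genes, 1 of 16 was higher, Socs4 at 0.34 (adjusted p = 0.14 by limma), and none was lower, with a median of 0.03. Leaving out cytarabine 1 gave 1 lower gene among the JAK and STAT genes, and leaving out control 1 gave 1 among these inhibitors.

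The genes of the PI3K, AKT and MAPK arm, the second route from the receptor, leaned the other way. Of 21 tested, none was higher and 4 were lower, with a median of -0.12. These were Pik3ca, a catalytic subunit of PI3K, at -0.26, Mtor at -0.30, Akt2 at -0.24 and Map2k2 at -0.20, with adjusted p between 0.182 and 0.27 by limma. The count of lower genes in this list ranged from 2 to 10 when 1 library was left out, and was 10 without cytarabine 1, where 1 was also higher. Among 13 transcription factor genes that act on the Il2 promoter, 2 were higher and none was lower, with a median of 0.15, and with 1 library left out 1 to 2 were higher and 0 to 2 were lower, 2 without cytarabine 1 and 2 without control 1. Rel, the NF-kB subunit c-Rel, was at 6.4, 5.6 and 5.74 FPKM against 2.53, 3.08 and 3.27 FPKM, a difference of 0.81 ± 0.12 (SE; adjusted p = 0.131 by limma). The NF-kB subunit genes Nfkb1 and Rela of the same list overlapped, with differences of -0.33 and 0.09 that did not pass. Fosl2 had 0.90 ± 0.30 (SE; adjusted p = 0.231 by limma), and its groups overlapped.

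Genes known to respond to IL2 or STAT5 included the largest differences of all the lists. Of 31 listed, 24 were tested, of which 9 were higher, 2 were lower and 13 did not pass, with a median of 0.34. Gzmb, Prf1 and Ctla4 passed the filter of 1 FPKM only through the cytarabine group, with control means of 0.341, 0.719 and 0.475 FPKM. Gzmb and Ctla4 were among the 9 higher genes. With no filter on low FPKM, 10 genes of the list were higher. The list was written with earlier results known and is not independent evidence of a direction. Under quantile normalization 4 were higher, and with a mean of at least 5 FPKM required, 5 were higher. Gzma and Prf1 of this list are also NK cell markers, and Ctla4 and Tnfrsf4 are also regulatory T cell markers. The T cell markers Cd28 and Cd3d were above in every cytarabine library, while Cd3g, Cd3e and the sum of the 10 T cell markers overlapped. The part of other cells in these counts was not tested.

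Xcl1, a chemokine of activated T and NK cells, measured 300.1, 108.5 and 129.8 FPKM with cytarabine, against 17.6, 26.5 and 37.4 FPKM in controls, a difference of 2.59 ± 0.45 (SE; adjusted p = 0.136 by limma). Tnfrsf9, the costimulatory receptor 4-1BB, was at 13.1, 7.55 and 10.4 FPKM against 1.56, 4.32 and 3.01 FPKM, a difference of 1.55 ± 0.32 (SE; adjusted p = 0.151 by limma). It ordered the control libraries as Il2ra did. Id2, an inhibitor of helix-loop-helix factors, had 0.90 ± 0.21 (SE; adjusted p = 0.164 by limma). Gzma, a granzyme, was at 7.49, 3.85 and 2.56 FPKM against 1.04, 1.56 and 1.03 FPKM, a difference of 1.26 ± 0.34 (SE; adjusted p = 0.185 by limma).

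The genes of this list that were lower are survival and growth genes. Bcl2l1, which encodes the survival protein BCL-XL, measured 77.9, 57 and 56.9 FPKM with cytarabine, against 83.9, 90.6 and 94.8 FPKM in controls, a difference of -0.50 ± 0.14 (SE; adjusted p = 0.19 by limma). Myc was at 33.4, 27.1 and 20.9 FPKM against 36.5, 35.6 and 48.5 FPKM, a difference of -0.56 ± 0.20 (SE; adjusted p = 0.248 by limma). Both were below in every cytarabine library. Bcl2, another survival gene, was among those higher, at 0.29 ± 0.11 (SE; adjusted p = 0.277 by limma). Pim1, Pim2 and Mcl1, further targets with survival functions, did not pass, with differences of 0.20, 0.33 and 0.08. Ifng was listed at 0 in all libraries.

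**Figure D5:**
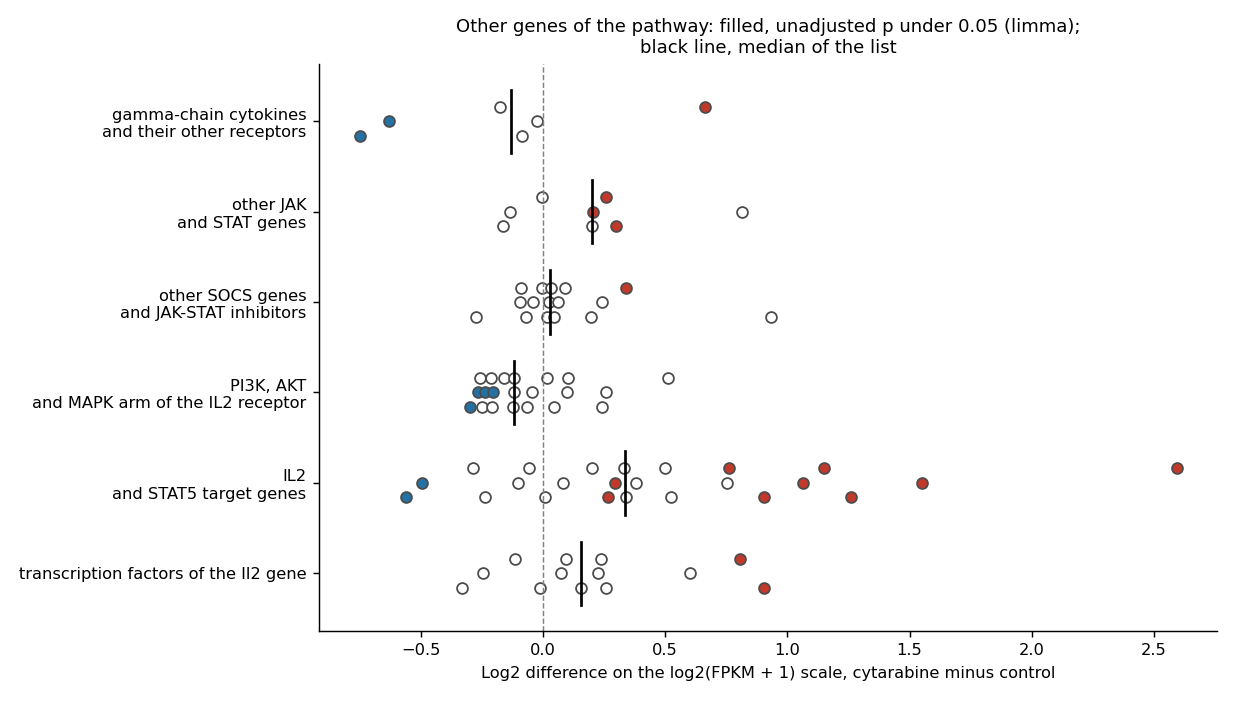
Log2 difference on the log2(FPKM + 1) scale, cytarabine minus control, of each tested gene in the 6 lists (rows); filled points had an unadjusted p under 0.05 by limma, red if higher and blue if lower, and black lines are list medians. The IL2 and STAT5 target genes spread most, from Myc at -0.56 to Xcl1 at 2.59, and have 9 of 24 filled points on the right.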

How the data were processed

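Sequencing was 75-base single-end on libraries from a stranded mRNA kit. Per the labels and the study's methods, the authors mapped reads to mm10 with TopHat2 2.0.13, Bowtie2 2.2.3 and SAMtools 0.1.19 and deposited FPKM values from Cufflinks 2.2.1, 1 file per mouse. The annotation is not given in the sources used here. From these, log2(FPKM + 1) was tested with limma 3.58.1 in R 4.3.3 (trend, two-sided, Benjamini-Hochberg) for the 11703 of 23284 genes whose mean reached 1 FPKM. The values are not counts, so no count model was used. The step was tested on simulated data. Depth was estimated from the spacing of low FPKM in the 3607 genes that have 1 transcript in GENCODE M21, assuming fragments of 200 bases. Between 72.5% and 76.9% of the values used were whole within 0.1 read, and reads per gene are estimates at that depth. Positions are from GENCODE M21.

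The members and lists were chosen with earlier results of these data known. Genes named are all members, up to 4 genes per direction and list with the smallest p under 0.05, and the 5 genes most like Il2ra. Il15ra, Il4ra, Il15, Il9, Il7, Tslp, Nfkb1, Rela, Bcl2, Gzmb, Prf1, Ctla4, Pim1, Pim2, Mcl1, Ifng and the genes in the closing section were named after their values were seen. Alternatives were other pseudocounts, filters and scalings, no trend, a replicate block and leaving out each library. The colon covariate and colon subsets were added after seeing the data. Python 3.11.15 with matplotlib 3.10.9 drew the figures.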

Additional observations from a re-analysis of the deposited data

How the results depend on the processing

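Of 170 member differences under the alternatives, 148 kept their direction within 1 SD, 7 kept it and moved further, and 15 changed sign. The 148 include values that could not change. The other filters, the fit without the trend and the replicate block return each member's main difference by construction. Il2ra, Il2rb, Socs1 and Socs3 kept their direction in all of them. The colon covariate gave 0.18 for Jak3, 0.028 for Stat5a and -0.26 for Cish. The colon-poor libraries alone, 1 cytarabine against 2 control, gave 0.23, 0.0041 and -0.13. Quantile normalization gave -0.026 for Il2, and left 2 members above in every cytarabine library. In that setting, 2421 of 11703 genes did not overlap, in either direction. Leaving out 1 library at a time gave -0.018 to 0.34 for Il2, -0.12 to 0.11 for Il2rg, -0.24 to 0.032 for Jak3, -0.15 to 0.0044 for Stat5a and -0.018 to 0.089 for Stat5b. It gave 0 to 1 members below in every cytarabine library left. Without cytarabine 1, 1 member was below and 4 were above, while 6586 of all genes tested did not overlap, in either direction.

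The count of genes at an adjusted p under 0.05 was 1 with a pseudocount of 0.1, 2 without the trend and 0 to 6 with 1 library left out, highest without cytarabine 1. Leaving out 1 library gave 593 to 2062 genes higher and 582 to 2049 lower at an unadjusted p under 0.05, and 3374 to 6586 genes without overlap, all highest without cytarabine 1. With all libraries, 2781 genes were without overlap. Among genes that stay in the filter, leaving out a library can only keep or raise this count. Of the IL2 and STAT5 targets, 5 were higher under the 5 FPKM filter, 4 with quantile normalization, and 1 to 3 were lower with 1 library left out. With the replicate block, 479 genes were higher, 515 lower and 1 target lower. The labels do not state that the numbers pair the mice. Same-numbered libraries deviated from their group means with correlations of -0.709, -0.247 and -0.594. Deviations within a group of 3 libraries depend on each other, so these values cannot show whether mice were paired. In the PI3K, AKT and MAPK list 10 genes were lower without cytarabine 1. The cause of these shifts was not tested. Depth limits Cish, and Il2rb in the controls.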

Other observations

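Several genes were set beside members after their values had been seen, and the correlations over the 6 libraries are descriptions. Socs2, another STAT5-responsive inhibitor gene, measured 0.856, 4.6 and 4.23 FPKM in cytarabine 1, 2 and 3, against 2.09, 0.732 and 0.463 FPKM in control 1, 2 and 3. It was high in the same 3 libraries as Cish, with an r of 0.959 between them, and the r of Cish with Zg16 was 0.868.

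Il2rb had an r of 0.956 with Gzma, and Il2ra an r of 0.960 with Rel. Each of these genes was above in every cytarabine library, and genes that separate the groups correlate for that reason alone. With Il2ra, 247 genes reached an r of 0.9.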
